A study of Mus musculus with 3 samples.

Results

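The early B cell factor (EBF) family was followed at the level of genes and of single probesets in sorted nestin-GFP bone marrow cells. Its members were the genes Ebf1, Ebf2, Ebf3 and Ebf4, found as the probesets whose platform annotation names exactly 1 of them. The annotation gave 25 probesets for Ebf1, 30 for Ebf2, 29 for Ebf3 and 24 for Ebf4, in all 108, and none of these also named another gene. All 4 genes were among the 18865 genes with at least 4 probesets that were tested. Ebf3 was once a name of the gene now called Ebf4, but the annotation holds both symbols, and each was taken as the current one.

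The data came from 3 exon-level arrays of a single group. The group was GFP-positive cells freshly isolated from the bone marrow of C57BL/6 mice, in which the nestin gene promoter drives GFP. No treatment, age or second genotype is named in the labels, and there was no control group. Nothing in the labels shows that the 3 arrays came from separate mice or sorts, so the spread behind each p-value is that of these samples and may be purely technical. The promoter limits the group to cells in which that transgene is active, and the level of Nes itself did not pass the test, with 5.97, 5.21 and 5.56 on arrays 1, 2 and 3 on the log2 scale (adjusted p = 0.631, limma).

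EBF proteins are transcription factors of the COE family. They bind DNA as dimers through a domain with an unusual zinc knuckle and carry a helix-loop-helix region. Ebf1 is best known for committing progenitors to the B lineage, where it switches on genes of the pre-B cell receptor and Pax5. Members of the family also act outside blood: in mice Ebf1 and Ebf3 help to keep marrow stromal cells that make Cxcl12 in their niche-supporting state, Ebf2 marks early osteoblast-lineage stroma and brown fat precursors, and the family was also found as regulators of olfactory neuron genes.

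Signal was judged against transcripts that marrow cells should lack. The background was 346 olfactory, vomeronasal and bitter taste receptor genes, and the 95th percentile of their values on an array was that array's chemosensory threshold, at 5.40, 5.57 and 5.59 on the log2 scale on arrays 1, 2 and 3. A gene was called where its mean over the arrays exceeded the threshold in limma's one-sided test at an adjusted p below 0.05. A stricter background of 34 genes of liver, retina, testis, lens, gut, lung, kidney, pancreas and heart gave the other-tissue threshold, at 6.79, 6.69 and 6.73. With 34 genes, this 95th percentile is set by the few highest of them, and 4 of the 34 were called above the chemosensory threshold. Probe affinity differs between genes, so the levels of the 4 members are not ranked against each other.

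All 4 EBF genes were called above the chemosensory threshold, where 52.2% of all 18865 genes were called. The other-tissue threshold separated them: Ebf1 and Ebf3 were called there too, while Ebf2 and Ebf4 were not, against 21.2% of all genes called. Because the samples are bulk RNA from sorted cells, fewer cells with a transcript and less transcript per cell cannot be told apart. Hybridisation of one member's transcript to another's probes was not tested, since no probe sequences were used.

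Ebf1, the B lineage commitment factor, gave a strong signal. Its median over probesets was 9.79, 9.47 and 9.79 on arrays 1, 2 and 3, on the log2 scale. The mean of 9.68 ± 0.18 (SD, n = 3) lay 4.16 ± 0.18 (SE) above the chemosensory threshold (adjusted p = 2.12e-06, limma) and 2.94 above the other-tissue threshold (adjusted p = 4.93e-05, limma). On each array 0 of the 346 receptor genes reached the value of Ebf1. Array 2 held the lowest value, and arrays 1 and 3 were equal to the second decimal.

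Ebf3, known from stromal cells that express Cxcl12 and the leptin receptor, behaved likewise against the background. It stood at 10.48, 10.09 and 10.21 on arrays 1, 2 and 3, with array 1 the highest. The mean of 10.26 ± 0.20 (SD, n = 3) was 4.74 ± 0.18 (SE) above the chemosensory threshold (adjusted p = 1.72e-06, limma) and 3.52 above the other-tissue threshold (adjusted p = 3.5e-05, limma). Here too 0 of the 346 receptor genes reached its value on any array.

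Ebf2, the member tied to brown fat and early osteoblast precursors, was near the stricter threshold. It had 6.62, 7.03 and 6.61 on arrays 1, 2 and 3, so array 2 was the highest. The mean of 6.75 ± 0.24 (SD, n = 3) exceeded the chemosensory threshold by 1.23 ± 0.17 (SE) (adjusted p = 0.000391, limma), and on arrays 1, 2 and 3 only 5, 1 and 3 receptor genes were as high. Against the other-tissue threshold the difference was 0.01 (adjusted p = 1, limma), with array 2 above it and arrays 1 and 3 below it.

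Ebf4, the least studied member, gave 6.45, 6.27 and 6.39 on arrays 1, 2 and 3, the narrowest spread of the 4. The mean of 6.37 ± 0.09 (SD, n = 3) was 0.85 ± 0.17 (SE) above the chemosensory threshold (adjusted p = 0.0022, limma) and 0.37 below the other-tissue threshold (a difference of -0.37). Between 4 and 6 of the 346 receptor genes were as high on each array. A value near a threshold set by probes of other genes says little about how many cells held the transcript.

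**Figure D1:**
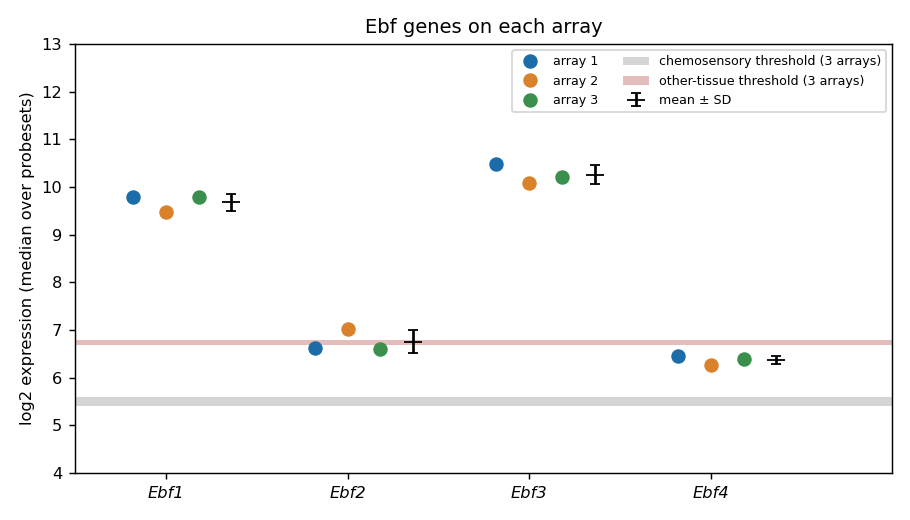
Log2 expression (median over probesets) of the 4 EBF genes on arrays 1, 2 and 3, with the mean ± SD (n = 3) in black. The grey and red bands span the chemosensory and other-tissue thresholds of the 3 arrays: Ebf1 and Ebf3 lie above both, with lowest values of 9.47 and 10.09, Ebf4 lies between them, and Ebf2 straddles the red band.

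The spread of the members over the 3 arrays was set beside that of all genes. The SDs of Ebf1 (0.18), Ebf2 (0.24), Ebf3 (0.20) and Ebf4 (0.09) were all under the median SD of 0.27 over all genes. The members had 24 to 30 probesets each, while 4 were enough for a gene to enter that median. The comparison was not matched for the number of probesets. A smaller SD than that of Ebf2 was found for 43.9% of genes, and a smaller one than that of Ebf4 for 10.2%. Leaving out any 1 array kept all 4 calls: the margin over the chemosensory threshold then ran from 4.04 to 4.29 for Ebf1, 1.12 to 1.33 for Ebf2, 4.57 to 4.85 for Ebf3 and 0.75 to 0.93 for Ebf4.

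The RefSeq promoter table (GRCm38.p6, windows from 250 bases before to 50 after an annotated start) held windows for 3 of the 4 members, 1 for Ebf3, 1 for Ebf4 and 2 for Ebf1. Those of Ebf1 and Ebf3 are shown because these are the members called against both backgrounds. Each runs 5′ to 3′ on the gene's strand, and capitals mark a match to CCCNNGGG, the core shared by EBF sites. The windows are chr7:137314396-137314695 on the minus strand for Ebf3, and chr11:44617850-44618149 and chr11:44619978-44620277 on the plus strand for Ebf1.
Ebf3: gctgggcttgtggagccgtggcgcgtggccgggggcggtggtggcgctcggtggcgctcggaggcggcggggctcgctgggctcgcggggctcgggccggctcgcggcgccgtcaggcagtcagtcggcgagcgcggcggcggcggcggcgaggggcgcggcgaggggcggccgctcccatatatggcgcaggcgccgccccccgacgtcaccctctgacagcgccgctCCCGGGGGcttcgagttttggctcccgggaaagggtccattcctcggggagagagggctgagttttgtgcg
Ebf1, first window: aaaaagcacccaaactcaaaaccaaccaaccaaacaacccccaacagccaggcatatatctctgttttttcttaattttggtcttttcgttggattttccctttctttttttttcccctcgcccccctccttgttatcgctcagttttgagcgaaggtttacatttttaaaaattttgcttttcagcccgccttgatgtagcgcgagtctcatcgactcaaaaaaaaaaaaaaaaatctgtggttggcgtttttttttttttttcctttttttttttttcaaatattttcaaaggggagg
Ebf1, second window: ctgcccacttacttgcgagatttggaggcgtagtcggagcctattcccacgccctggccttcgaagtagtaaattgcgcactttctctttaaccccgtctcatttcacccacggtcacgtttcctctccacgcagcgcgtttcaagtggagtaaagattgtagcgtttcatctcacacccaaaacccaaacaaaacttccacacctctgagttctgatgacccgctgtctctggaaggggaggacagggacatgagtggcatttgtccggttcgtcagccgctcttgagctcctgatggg

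These windows differ in base composition. G and C make up 77.0% of the Ebf3 window and 36.7% and 53.0% of the Ebf1 windows, against a median of 52.7% over all 32851 promoter windows. The longer palindrome, this core with a T before it and an A after it, had 0 matches on either strand in the 4 windows of the family, where 0.90% of all windows hold one. The shorter core CCCNNGGG, searched on both strands and contained in every longer match, matched once, in the Ebf3 window, where 13.67% of all windows hold it. A match is a description of letters and not a bound site.

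Single probesets were read to describe the family at finer grain. The gene values are medians of these same probesets on the same arrays. A like division of the family was therefore largely built in and is not separate evidence. A probeset was called against the 95th percentile of the 3897 receptor probesets of its array, at 6.95, 7.14 and 6.95 on the log2 scale. Of the family's 108 probesets 53 (49.1%) were called by limma, where 21.4% of all 318760 probesets with 1 gene symbol were called. Against the corresponding other-tissue threshold 27 of 108 were called, beside 6.20% of all probesets. Among the 4104 genes with 20 to 35 probesets, the median gene had 15.2% of its probesets called, with quartiles of 6.7% and 33.3%.

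Ebf1 had 21 of 25 probesets called (84.0%), and 11 were called against other-tissue probesets. Their means ran from 8.81 to 11.84. The highest, probeset 4562527, gave 11.86, 11.86 and 11.81 on arrays 1, 2 and 3. Of the 4 that were not called, 3 had a mean below the threshold, the lowest being probeset 5594887 with 6.57, 5.99 and 5.92.

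A few Ebf1 probesets moved between arrays far more than the gene value did, and not in the same direction. Probeset 4790592 had 4.22, 8.17 and 6.42 on arrays 1, 2 and 3, a range of 3.94 with array 2 the highest. Probeset 4487006 had 10.96, 8.82 and 10.32, with array 2 the lowest. In probeset 4842155, with 8.81, 9.03 and 6.86, array 3 was the low one. Only these 3 Ebf1 probesets had a range above 2, a range that 12.6% of all probesets exceeded.

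Ebf3 had the smallest median range of its probesets between arrays, 0.44, against 0.61 for Ebf1 and Ebf4 and 0.97 for Ebf2. No probeset of it had a range above 2, the largest being 1.14, and 7 of 29 stayed within 0.2. Its called probesets, 21 of 29 (72.4%), had means from 7.99 to 12.80, and 16 of them were called against other-tissue probesets. The highest, probeset 4846727, gave 12.88, 12.75 and 12.77 on arrays 1, 2 and 3. At the other end lay 5 probesets with a mean below the threshold, and the lowest, probeset 5165989, gave 4.54, 4.41 and 4.87. Low probesets stood beside high ones on every array, and a gene value taken as the mean over probesets gave a margin of 4.08, where the median gave 4.74.

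Beside 21.4% of all probesets, Ebf2 had 8 of 30 called (26.7%), with means from 8.09 to 9.33. Against other-tissue probesets limma called 0, where 6.20% of all probesets were called, and 2 of the 30 had an unadjusted p below 0.05. Its highest, probeset 5198596, had 8.58, 9.61 and 9.81 on arrays 1, 2 and 3, and its lowest, probeset 5066019, had 4.12, 3.80 and 3.53. Array 3 was the lowest for 18 of its 30 probesets. The count of 8 became 5 without array 1, 3 without array 2 and 5 without array 3. Over all probesets the count of 68212 became 55662, 52912 and 50811.

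Variation between arrays was wider in Ebf2 probesets, with a median range of 0.97 against 0.80 over all probesets. Those with a range above 2 were 4 in number and none was called. Probeset 4956622 had 5.20, 7.45 and 4.28, with array 2 the highest. Probeset 4446920 had 4.66, 4.70 and 2.24, probeset 5246327 had 6.49, 6.79 and 4.71, and probeset 5000126 had 5.17, 4.71 and 3.16, all lowest on array 3.

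Ebf4 had 3 of 24 probesets called (12.5%), a share below that of all probesets, although its median passed the gene-level test. Against other-tissue probesets limma called 0, also 0 at an unadjusted p below 0.05, where 6.20% of all probesets were called. Probeset 5001724, the highest, gave 8.64, 8.67 and 8.66 on arrays 1, 2 and 3, and the lowest, probeset 4525863, gave 3.49, 4.04 and 3.57. The count of 3 became 1 without array 1, 2 without array 2 and 1 without array 3. Over all probesets the count of 68212 became 55662, 52912 and 50811.

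Log2 levels of a gene's probesets were positively correlated between the 3 arrays. Pearson's r across probesets is given here. The probesets share the array and the probes' affinities and are not independent replicates. Over 29 probesets of Ebf3 r was 0.988 for arrays 1 and 2, 0.994 for arrays 1 and 3, and 0.989 for arrays 2 and 3. Over 24 probesets of Ebf4 the 3 coefficients were 0.928, 0.937 and 0.950, over 30 of Ebf2 they were 0.909, 0.842 and 0.845, and over 25 of Ebf1 they were 0.776, 0.915 and 0.864. These are descriptions without a test.

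**Figure D2:**
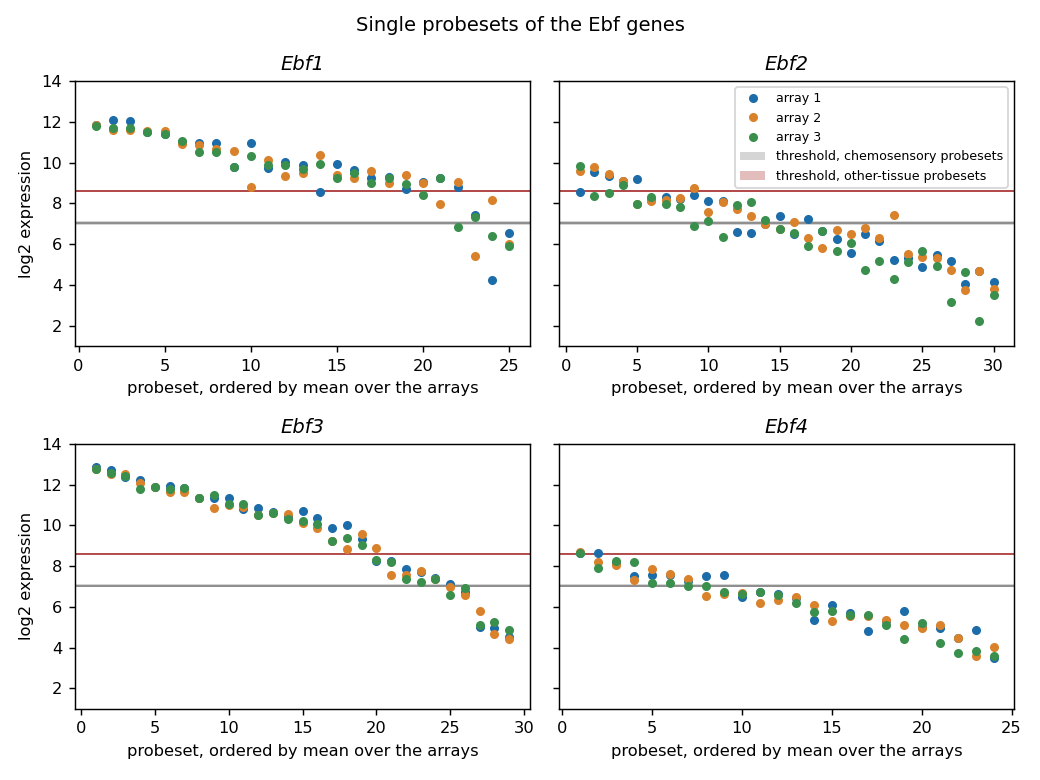
Log2 expression of every probeset of Ebf1 (25), Ebf2 (30), Ebf3 (29) and Ebf4 (24), ordered by their mean, with 1 point for each of the 3 arrays. Grey and red bands are the chemosensory and other-tissue probeset thresholds: most Ebf1 and Ebf3 probesets lie above the grey band, and most Ebf2 and Ebf4 probesets do not.

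Genes that encode partners and antagonists of EBF proteins were mostly called. Of 17 measured members of this list 16 passed the chemosensory threshold and 10 the other-tissue threshold, where 52.2% and 21.2% of all genes did. The 16 include Pax5, which is also in the B lineage list and is described there. Without array 1, 2 or 3 the count of 16 became 14, 14 and 16. All genes called were then 8980, 9507 and 9231, against 9847. The list's median margin over the chemosensory threshold was 1.93, against 0.55 over all genes.

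Zfp423, a zinc finger protein that binds EBF1 and marks preadipocytes, had 7.92, 7.97 and 7.88 on arrays 1, 2 and 3, a margin of 2.40 (adjusted p = 1.12e-05, limma). Its paralogue Zfp521, which antagonises EBF1 in fat and B cell precursors, had 6.85, 7.33 and 7.26 and passed only the chemosensory threshold. The 3 E proteins were called, with Tcf12 at a margin of 3.02, Tcf4 at 2.90 and Tcf3 at 1.57. Tcf3 was not called against the other-tissue threshold (a margin of 0.36, adjusted p = 0.102, limma), and Tcf12 and Tcf4 were. Id proteins, which block E proteins, were called as well: Id3 (9.42, 9.02 and 8.55) and Id4 (8.76, 9.27 and 8.90) against both backgrounds, and Id1 and Id2 against the chemosensory one. The call of Id1 was lost without array 1 (adjusted p = 0.173, limma) and without array 2 (adjusted p = 0.139, limma). Runx1, which works with EBF1 in B cell progenitors, stood at 9.99, 10.04 and 9.46 (margin 4.31). The chromatin proteins Chd4, Smarca4 and Tet2 had margins of 3.24, 1.73 and 1.93. Ikzf1, the lymphoid regulator Ikaros, was the 1 member not called, with 4.97, 4.90 and 5.43.

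Genes of the B lineage, a list not limited to targets of EBF1, were mostly near or below background. Limma called 1 of 15 measured members, Pax5, beside 52.2% of all genes. Against the other-tissue threshold it called 0, also 0 at an unadjusted p below 0.05, beside 21.2% of all genes called. The list's median margin was -0.58, where that of all genes was 0.55. Pax5, the B cell identity factor, had 6.19, 6.08 and 5.74 on arrays 1, 2 and 3 (adjusted p = 0.0375, limma), and that call was lost without array 1 (adjusted p = 0.147), without array 2 (adjusted p = 0.095) and with the mean over probesets (adjusted p = 0.0618). Cd79a, which encodes a chain of the B cell receptor and is a direct EBF1 target, had 4.64, 5.07 and 4.82, below the threshold on each array. Pou2af1, a B cell coactivator, had 5.32, 6.18 and 6.98, above the threshold on arrays 2 and 3, and was not called (adjusted p = 0.054, limma). It passed without array 1 (adjusted p = 0.017), without array 2 (adjusted p = 0.0494) and with the mean over probesets (adjusted p = 0.000309). Rag2, of the recombinase, had 3.52, 3.93 and 3.60, and Vpreb3 had 3.91, 3.90 and 3.54. Vpreb1 was not analysed here. The count was 5 with the 90th percentile of receptor genes and 4 without olfactory receptors in the background. Of all 18865 genes, 12199 and 11655 were called under these settings, against 9847.

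Olfactory neuron genes, a list also linked to the EBF family, were called in 3 of 15 cases, a share below that of all genes. These were Gng13 (6.60, 6.70 and 6.70 on arrays 1, 2 and 3), Adcy3 (6.62, 6.53 and 6.82) and Lhx2 (6.43, 6.68 and 6.44), and by limma 0 of the 15 were called against the other-tissue threshold, and 0 had an unadjusted p below 0.05. Omp, the marker of mature olfactory neurons, had 5.12, 4.97 and 4.84, below the threshold on each array. Ncam2 had 4.58, 3.86 and 3.86, and Stoml3 had 4.36, 4.33 and 3.95. Olfactory receptor genes are themselves described as EBF targets in the nose; with vomeronasal and taste receptors alone as background the margins were 4.50 for Ebf1, 1.57 for Ebf2, 5.08 for Ebf3 and 1.19 for Ebf4, and all 4 were called.

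Marrow stromal niche genes were called in full, 14 of 14 against both backgrounds, beside 52.2% and 21.2% of all genes. Like the other lists, this one was chosen with earlier results of these data known, so its count is a description. The list's median margin was 4.80, against 0.55 over all genes. Cxcl12, the chemokine of the niche, had 11.77, 11.89 and 11.61 on arrays 1, 2 and 3, Kitl, the ligand of Kit, had 10.46, 10.47 and 10.93, and Lepr had 11.39, 11.50 and 11.27. The lowest margin of the list was 2.41, for Foxc1, a forkhead factor of the same stroma, with 8.27, 7.90 and 7.62. Values of the listed stromal markers ran from a mean of 7.93 to one of 11.75.

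Fat cell genes were called in 13 of 16 cases, and 5 were called against the other-tissue threshold, beside 52.2% and 21.2% of all genes. Pparg, the master regulator that EBF1 and EBF2 act with, had 9.60, 8.69 and 9.09 on arrays 1, 2 and 3 and Adipoq had 11.69, 11.63 and 11.47, and both were called against the other-tissue threshold. Lpl had 10.78, 10.22 and 10.52. The fatty acid carriers Cd36 (9.84, 5.80 and 9.68) and Fabp4 (9.05, 6.17 and 9.86) passed the chemosensory threshold only, and both were lowest on array 2, where 15 of 16 endothelial genes were lowest too. Of the 16 fat cell genes 7 were lowest on array 2, and of all 18865 genes 6199 were. The part of endothelial cells in these values was not tested. Cd36 lost its call without array 1 (adjusted p = 0.0734). Prdm16, the brown fat regulator, passed the chemosensory threshold only, with 6.22, 6.39 and 6.19, and Ucp1, the uncoupling protein of brown fat that Ebf2 helps to activate there, did not, with 4.65, 4.68 and 4.35. Lipe had 5.45, 5.72 and 6.32 and was not called either.

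In the osteoblast list 11 of 12 measured members were called, 9 of them against the other-tissue threshold, beside 52.2% and 21.2% of all genes. Runx2, the osteoblast master regulator, gave 8.75, 8.85 and 8.80 on arrays 1, 2 and 3, Spp1 10.66, 9.91 and 10.08, Phex 9.69, 9.75 and 8.93, and Ibsp 12.32, 12.32 and 12.34. The exception was Tnfrsf11b, the osteoprotegerin gene that Ebf2 regulates in mouse osteoblasts. It had 4.97, 4.93 and 5.27, below the threshold on each array, but with the mean over probesets it passed at a margin of 0.29 (adjusted p = 0.0421, limma). Sost, an osteocyte gene, was called narrowly with 6.24, 5.82 and 5.92, a call lost without array 1 (adjusted p = 0.158) and without array 3 (adjusted p = 0.0739).

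**Figure D3:**
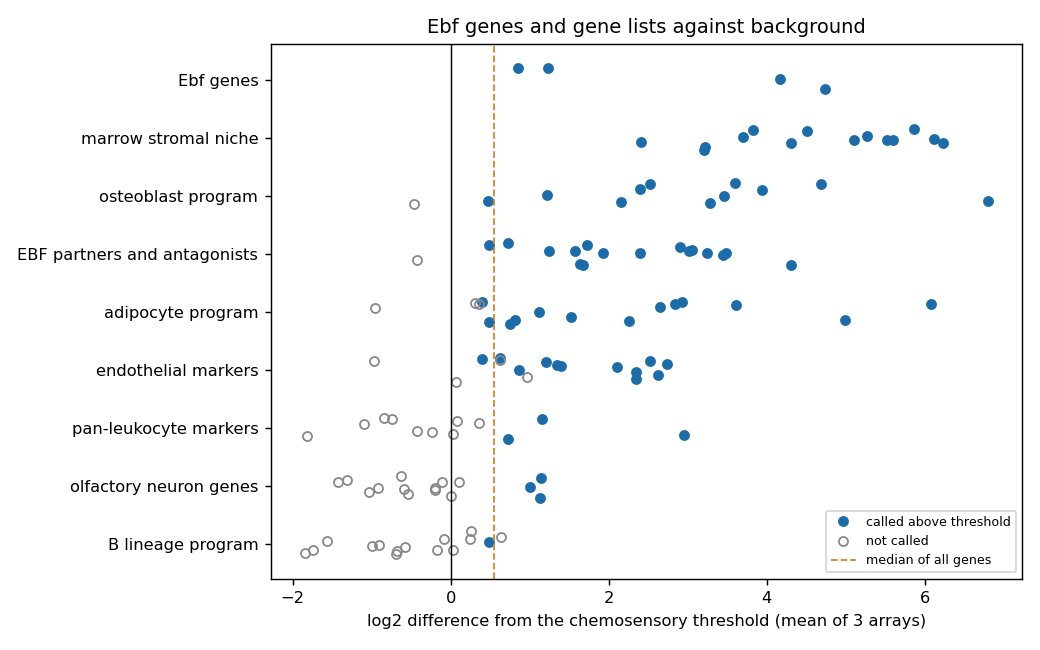
Difference of each gene's log2 value from the chemosensory threshold (mean of 3 arrays) for the 4 EBF genes and for the members of 8 gene lists, filled where called by limma and open where not; vertical position within a row is only for legibility. EBF genes and stromal, bone and partner genes lie right of 0 with few exceptions, while most B lineage and olfactory neuron genes lie left of it; the dashed line is the median of all genes, 0.55.

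Markers of other marrow cell types were read on the same arrays. Of 12 pan-leukocyte genes 3 were called, Lcp2 (8.98, 8.48 and 7.96 on arrays 1, 2 and 3), Rac2 (7.20, 6.38 and 6.43) and Hcls1 (6.00, 5.69 and 7.04), and only Lcp2 against the other-tissue threshold, beside 52.2% and 21.2% of all genes. Hcls1 lost its call without array 1 (adjusted p = 0.0869) and without array 3 (adjusted p = 0.171). Ptprc, the gene of CD45, had 4.54, 4.37 and 5.14, below the threshold on each array, while Cd48 had 4.25, 3.41 and 3.43 and Vav1 had 4.22, 4.55 and 4.52. The list's median level on arrays 1, 2 and 3 was 5.28, 5.25 and 5.69. The part of leukocytes in the EBF values was not tested.

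Of the 8 lists, the endothelial one had the widest swing of its median between arrays. Of 16 measured members 12 were called, beside 52.2% of all genes. Without array 1, 6 were called, beside 8980 of all 18865 genes. Against the other-tissue threshold 3 of 16 were called, beside 21.2% of all genes. On array 2 lay the lowest value of 15 of the 16. Cdh5 had 9.14, 6.05 and 9.58, Emcn 8.50, 6.75 and 9.16, and Pecam1 8.92, 6.73 and 8.46 on arrays 1, 2 and 3. Sox17, at 5.91, 5.15 and 5.71, and Lyve1, at 4.68, 4.37 and 4.60, were not called.

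Deviations of the EBF genes from their own means were set beside these, after removal of the median deviation of all genes on each array. For Ebf1 they were 0.08, -0.22 and 0.14 on arrays 1, 2 and 3, for Ebf3 0.19, -0.17 and -0.02, for Ebf4 0.06, -0.11 and 0.05, and for Ebf2 -0.16, 0.27 and -0.11. Ebf1, Ebf3 and Ebf4 were thus lowest on array 2 and Ebf2 was highest there. The endothelial list had medians of 0.29, -0.86 and 0.58, the niche list 0.03, 0.06 and -0.10. The part of endothelial cells in the EBF deviations was not tested; without array 2 the margin of Ebf1 was 4.29 and that of Ebf3 4.85.

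**Figure D4:**
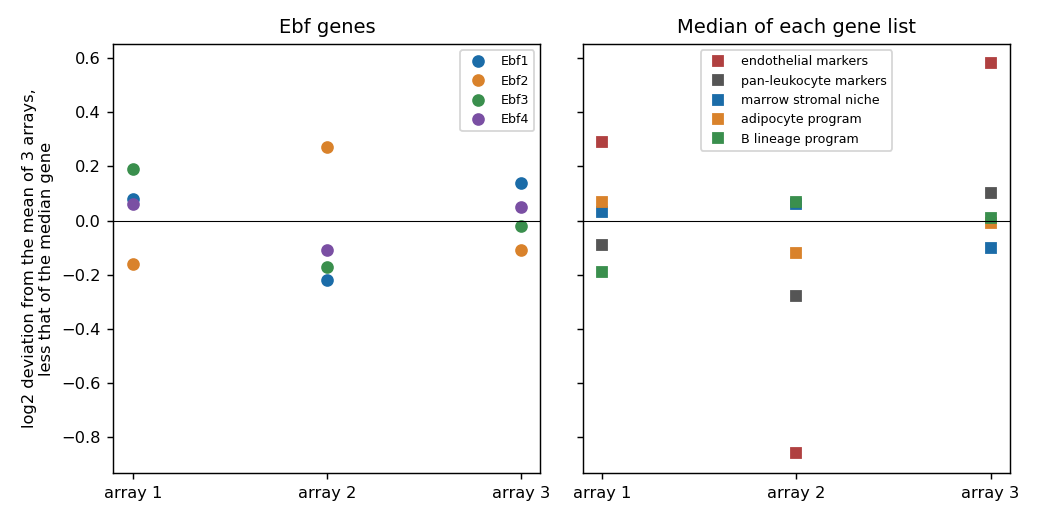
Log2 deviation from the mean of the 3 arrays, less that of the median gene, for the 4 EBF genes (left) and for the medians of 5 gene lists (right). EBF genes stay between -0.22 and 0.27, and the endothelial list reaches -0.86 on array 2.

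Among 116 listed genes, those whose deviations over the 3 arrays lay closest to a member, by Euclidean distance on the log2 scale, were Lyve1 (0.07) and Klf15 (0.08) for Ebf1, Rag2 (0.08) and Id4 (0.10) for Ebf2, Cd37 (0.02) and Gng8 (0.03) for Ebf3, and Angpt1 (0.01) and Gas6 (0.06) for Ebf4. Several of these, such as Rag2, Lyve1, Cd37 and Gng8, were not called above background. With 3 arrays of 1 group such likeness describes these arrays only.

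Promoter windows of the listed genes were searched for the same letters. The longer palindrome, CCCNNGGG between a T and an A, was found in 2 of the lists' genes, Foxo1 (window chr3:52268087-52268386, plus strand), as TCCCGAGGGA, and the B cell gene Cd22 (window chr7:30878979-30879278, minus strand), as TCCCTGGGGA. In all windows 0.90% hold a match. Foxo1, a partner of EBF1 in early B cells, had a margin of 1.25 over the chemosensory threshold (adjusted p = 0.00111, limma) and was not called against the other-tissue threshold (a margin of 0.03, adjusted p = 1), and Cd22 was not called, with 4.62, 4.70 and 4.55 on arrays 1, 2 and 3. The shorter core was present in 7 of 17 windows of olfactory neuron genes (41.18%), in 3 of 13 of B lineage genes, in 5 of 17 of fat cell genes, in 2 of 10 of niche genes and in 0 of 13 of osteoblast genes, beside 13.67% of all windows. It was also present in 5 of 21 windows of EBF partner and antagonist genes. Of lists not chosen for a link to EBF, the pan-leukocyte list held it in 4 of 12 windows and the endothelial list in 4 of 15. The window sets differ in base composition. The median share of G and C was 59.3% for olfactory neuron genes, 58.5% for niche genes, 50.3% for pan-leukocyte genes and 47.7% for osteoblast genes. It was 52.7% over all windows. The shares of windows with a match are descriptions with no test.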

How the data were processed

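The authors deposited log2 expression per probeset for 3 arrays. They had used Affymetrix Expression Console 1.1 and RMA, per the submitters' processing notes. No source used here gives the RMA settings or the annotation build. Per the labels' protocols, RNA from sorted cells was amplified with a kit for very small inputs, which can add noise to weak transcripts. Values ran from 0 to 13.74, with medians of 5.20, 5.22 and 5.24 on arrays 1, 2 and 3. The number of arrays limits the precision.

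Of 1256831 probesets, 318760 had 1 symbol in the platform annotation, 6684 had several and 931387 carried no symbol. Through RefSeq synonyms (GRCm38.p6) 4227 older symbols were replaced. A gene's value was the median of its probesets, with at least 4 required. Values minus the array's threshold were fitted with an intercept-only model in limma 3.58.1 (R 4.3.3), one-sided, with Benjamini-Hochberg adjustment over all genes or all probesets. The script was tested on simulated data. A margin is the log2 value minus the threshold.

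The members and gene lists were chosen with earlier results of these data known. Named genes were the members, Nes, up to 3 called members of each list with the largest margin, the 2 with the smallest, a fixed set of regulators and markers, and the genes nearest to each member over the arrays. Prdm16, Tcf3, Tcf4, Tcf12, Id1, Id2, Chd4, Smarca4, Tet2, Foxo1, Cd22, Cd36, Fabp4 and Pou2af1 were added after their values were seen. Named probesets were the highest, the lowest and those with a range above 2. Genes with fewer than 4 probesets are not analysed here. The planned protein comparison was not run, because no protein sequences were used here. Alternatives changed the probeset summary, the threshold, the background genes, the probeset minimum, the normalization and the variance prior, or left out an array.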

Additional observations from a re-analysis of the deposited data

How the results depend on the processing

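Over 13 alternatives Ebf1 and Ebf3 stayed above the threshold, with margins from 2.94 to 4.58 and from 3.52 to 5.16 and adjusted p of at most 0.000226 (limma). Ebf2 and Ebf4 depended on the background. With the 99th percentile of receptor genes the margin was 0.13 for Ebf2 (adjusted p = 0.795) and -0.25 for Ebf4 (adjusted p = 1). With other-tissue genes it was 0.01 and -0.37 (adjusted p = 1 for both). Under either setting 2 of the 4 members were called. All genes called were then 4376 and 3991, against 9847, listed genes 44 and 42, against 72 of 116, and probesets 16712 and 19758, against 68212. Called probesets were 10 and 11 for Ebf1, 16 and 16 for Ebf3, and 0 and 0 for Ebf2 and for Ebf4. By construction a higher threshold calls fewer features. Leaving out 1 array gave 3 to 5 called probesets for Ebf2, 1 to 2 for Ebf4, and 20 to 21 for Ebf1 and for Ebf3. Of all 318760 probesets, 50811 to 55662 were then called, and 4 of 4 EBF genes were.

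With the 99th percentile the margins of Hcls1, Id1, Lhx2, Pax5, Prdm16 and Sost were -0.38, -0.38, -0.10, -0.62, -0.35 and -0.63. With other-tissue genes those of Adcy3, Gng13, Hcls1, Id1, Lhx2, Pax5, Prdm16, Rac2 and Sost were -0.08, -0.08, -0.50, -0.50, -0.22, -0.74, -0.47, -0.07 and -0.75. Tnfrsf11b passed with the mean over probesets (0.29, adjusted p = 0.0421); the cause was not tested. Cdh5 was not called with the 99th percentile (adjusted p = 0.0572), with other-tissue genes (adjusted p = 0.136) or without array 1 (adjusted p = 0.0527). Called leukocyte genes were 5 with the mean over probesets and 6 with the 90th percentile, against 3. Called olfactory neuron genes were 5 with the 90th percentile, against 3. All genes called were 10610 with the mean over probesets and 12199 with the 90th percentile, against 9847. No paired analysis was possible because the 3 arrays form 1 group. Nothing here separates a weak transcript from cross-hybridisation, and limma's calls rest on 3 arrays.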
